A study of Rattus norvegicus with 3 samples.

Results

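The genes described here are those that stood at least 4-fold above the uninjured artery on the day 7 array and within 2-fold of it on the day 21 array. On the log2 scale this means a ratio to uninjured of at least 2 at day 7 and between -1 and 1 at day 21. Of 5172 genes measured on all 3 arrays, 68 (1.31%) met both limits. Apod, Sox10, S100a8, S100a9 and Mmp24 met both but were left out by name, which gave 63 members (1.22%). The members were selected on these day 7 and day 21 ratios, which are given below as a description with no test.

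The study asked how gene expression in the arterial wall changes after balloon injury, a procedure that draws an inflated catheter through the vessel and so removes its inner lining and stretches its muscle layer. The tissue was the common carotid, taken whole from Wistar rats that were male, and the 3 groups were an uninjured artery, an artery 7 days after injury and an artery 21 days after injury. The labels name no other treatment and give no age. There was 1 array per group, each of Cy3-labelled RNA on a one-colour Agilent rat array, so there were no biological replicates, no test could be made, and each comparison below sets 1 array against another. The uninjured and day 21 arrays shared 1 array design, 1 scan and 1 release of the scanner software, while the day 7 array had another design, its own scan and a later release. A difference that sets the day 7 array apart from both others, which is what the rule selects, and this difference in processing cannot be told apart. In bulk tissue, more cells of a type and more RNA per cell cannot be told apart.

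By general knowledge, a balloon-injured artery passes through an early phase in which smooth muscle cells and fibroblasts divide and move, blood cells enter and matrix is laid down, followed by a phase in which a neointima persists while division subsides. Nerve bundles run in the outer layer of the artery, and their Schwann cells, which wrap axons, can leave the myelinating state and divide after damage. The genes below include parts of the division machinery, Schwann cell genes, secreted proteins and a broad remainder with no common role.

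Each level is the log2 processed signal of a gene's probe minus the 75th percentile of its array, so a level of 0 is that percentile and -1 is 2-fold below it. Errors (±) are SDs interpolated from replicate spots of similar signal, which cover spot-to-spot error on an array and nothing between animals. Signals at the scaling percentile were 295, 493 and 845 intensity units on the uninjured, day 7 and day 21 arrays. Of the probes common to both designs, 69.9%, 79.2% and 77.0% were well above background, and no spot was saturated. Over all 5172 genes the median log2 ratio was 0.10 at day 7 and -0.17 at day 21. At day 7, 250 genes (4.83%) stood 4-fold or more above uninjured and 177 (3.42%) 4-fold or more below it. Here a gene is called higher or lower when it differs from uninjured by 2-fold or more; 980 genes (18.9%) were higher and 715 (13.8%) lower. The higher genes were thus 57.8% of these calls, but 44.0% with the arrays scaled on the median, 46.1% after quantile normalization, 42.9% after normexp background correction and 5.46% with own-design scaling, in which the percentile is taken over all probes on an array. Own-design scaling shifts every day 7 ratio by the same -1.34, which puts the median of all genes at -1.24. Medians of gene lists given below for own-design scaling are to be read against that value. At day 21, 528 genes (10.2%) were higher and 697 (13.5%) lower, and 3947 (76.3%) lay within 2-fold. The share of higher genes among these day 21 calls was 43.1%, but 56.4% after quantile normalization, 61.0% after cyclic loess and 21.3% after normexp background correction. All 12 genes of the contractile smooth muscle list with a shared probe were well above background on each array, which fits the labelled tissue.

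Across the 63 members the day 7 ratio had a median of 2.31 and ran from 2.02 to 5.96, and 41 members lay under 2.5. A ratio of 3 (8-fold) or more was reached by 7. The day 21 ratio had a median of 0.15 and ran from -0.999 to 0.93. At day 21, 35 members lay above the uninjured level and 28 below it, and for 30 the distance was more than 2 times the spot SD, 22 of them higher and 8 lower. The mirror set, with day 7 ratios of -2 or less and day 21 ratios within 2-fold, held 60 genes (1.16%). No names were left out of it, so it stands beside the 68 genes (1.31%) that met both limits of the rule.

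**Figure D1:**
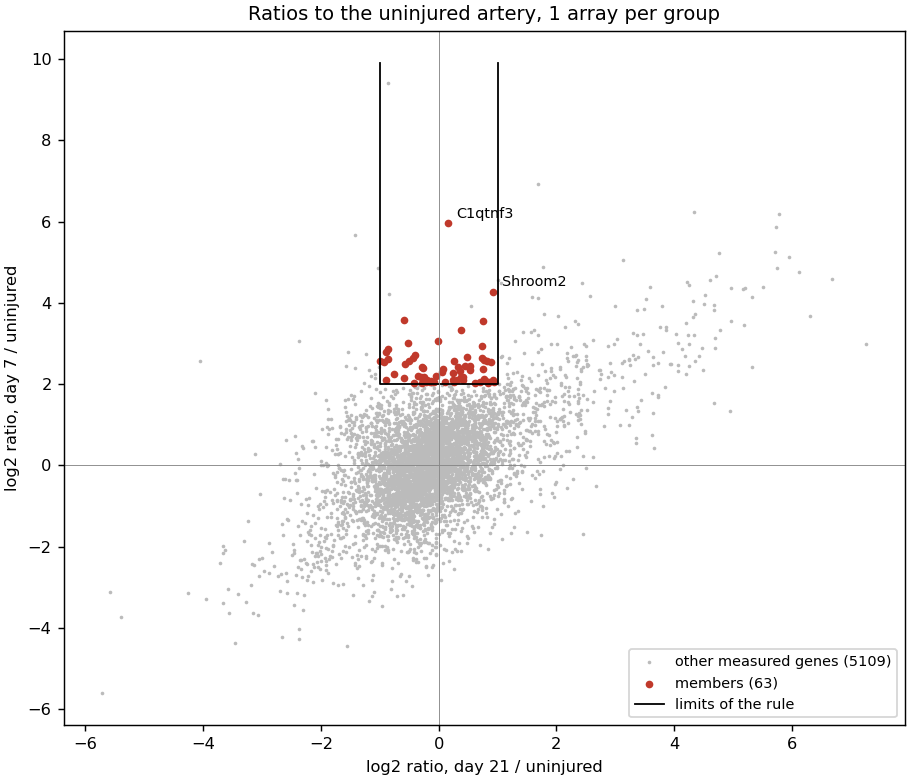
Log2 ratio to the uninjured array at day 7 (vertical axis) against day 21 (horizontal axis) for 5172 genes, 1 array per group; red points are the 63 members and the black lines the limits of the rule. The members form a band just above the day 7 limit, with C1qtnf3 at 5.96 far above the median of 2.31; the 5 grey points between the lines are the genes left out by name.

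Among the secreted and matrix proteins, C1qtnf3 (a secreted protein of the C1q and tumour necrosis factor family) had the largest day 7 ratio of all members. Its level was -4.97 in the uninjured artery, 0.99 at day 7 and -4.81 at day 21. The probe was thus bright on the day 7 array alone, 62.2-fold above uninjured (log2 ratio 5.96 ± 0.40), and within spot error of uninjured at day 21 (0.15 ± 0.46). Before scaling, its signals were 9.44, 981 and 30.1 intensity units, and the uninjured value lay just above the lowest signal well above background on that array, 8.31. A second probe of C1qtnf3, present on the older design only, had a day 21 ratio of -1.16. The 250 bases before the RefSeq start of this gene (GRCr8 assembly) are shown because it leads the set, with a match to the TATA box (TATAAA on either strand) in capitals.
C1qtnf3, chr2:61644066-61644315, plus strand: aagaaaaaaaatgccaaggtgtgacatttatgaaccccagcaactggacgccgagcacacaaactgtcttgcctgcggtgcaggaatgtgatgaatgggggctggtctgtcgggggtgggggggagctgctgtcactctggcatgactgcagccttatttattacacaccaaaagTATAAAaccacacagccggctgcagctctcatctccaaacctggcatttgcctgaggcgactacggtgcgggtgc

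The TATA motif was present in 4 of the 48 member promoters in the RefSeq table (8.33%), in 7.90% of the 4238 promoters of measured genes and in 13.1% of all 27457 promoters.

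Pla1a (a secreted phospholipase that acts on phosphatidylserine) stood at -1.54, 1.40 and -0.80 in the uninjured, day 7 and day 21 arteries. The day 7 ratio was 2.95 ± 0.16 and the day 21 ratio 0.74 ± 0.17, so day 21 lay between the other arrays. Tgfbi (a matrix protein induced by TGF-beta) had bright signals of 579, 4812 and 2127 units, at levels of 0.97, 3.29 and 1.33. Its ratios were 2.31 ± 0.14 and 0.36 ± 0.14. C1qtnf6, a relative of C1qtnf3, had ratios of 2.11 ± 0.14 and 0.31 ± 0.14. These 3 genes were far above background on every array.

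Grem1 (a secreted inhibitor of bone morphogenetic proteins) had a day 7 ratio of 2.36 ± 0.18 by the probe the rule reads. Its second shared probe, also well above background on all 3 arrays, gave 0.66 at day 7 and -0.77 at day 21. The Grem1 probes therefore differ on whether the gene meets the rule. Wnt10a (a Wnt ligand) and Hs3st2 (an enzyme that sulfates heparan sulfate) were dim, with uninjured signals of 11.2 and 9.56 units. Wnt10a had ratios of 2.58 ± 0.35 and -0.999 ± 0.50 and is the member nearest to the lower day 21 limit.

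Of the matrix glycoprotein and proteoglycan list, 34 genes were measured, 10 higher and 3 lower at day 7, with a median of 0.61. Tgfbi was its only member. Of the Wnt, Notch and hedgehog list, 4 of 10 were higher and 1 lower, with a median of 0.62, and 2 (Dhh and Wnt10a) were members. With own-design scaling the medians of these lists were -0.73 and -0.72, against -1.24 over all genes.

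Members that act in Schwann cells and glia numbered 4, with a median day 7 ratio of 3.03. The rule selected on this ratio and the roles were assigned after values were seen, so no ranking of the role groups is drawn from it. Dhh (desert hedgehog, a ligand that Schwann cells send to the nerve sheath) stood at -4.43, -1.38 and -4.44, with ratios of 3.05 ± 0.27 and -0.01 ± 0.31. Its day 21 value depended on the source. A further probe on the older design gave 1.33, though its uninjured signal was not well above background. The row named for the rule's probe in the authors' deposited table was 1.31 above uninjured. At day 21 that row read 5.58 for 39.0 units, while Actn3 read 5.07 for 38.1 units. The row may therefore not be a reading of this probe alone, nor a source separate from the further probe. Cnp (a phosphodiesterase of myelinating cells) stood at -4.07, -1.05 and -4.59, with ratios of 3.02 ± 0.23 and -0.52 ± 0.29. The uninjured and day 21 signals of Dhh (13.7 and 39.0 units) and Cnp (17.6 and 35.03 units) were within 4 times the lowest signal well above background.

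Gfra2 (a co-receptor for the growth factor neurturin) was placed in this group by role and is not in the Schwann cell list. It lay close to the day 7 limit, at 2.03 ± 0.17, with a day 21 ratio of -0.42 ± 0.20. The row named for this probe in the authors' deposited table was 1.82 lower at day 7 than in the uninjured artery on the log2 scale, the opposite direction. That row did not follow this probe's signal. At day 7 it read 4.91 for 267 units, while Acyp1 read 8.01 for 272 units. Further Gfra2 probes on the day 7 design stood at -3.63 and -3.36, against -0.89 for the probe the rule reads. How the deposited value was formed was not tested. The direction of Gfra2 therefore depends on the values used.

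Of the Schwann cell and nerve sheath list, 15 genes were measured: 8 were higher and 0 lower at day 7, with a median of 1.30, against 18.9% higher over all genes. At day 21, 1 was higher and 4 lower, with a median of -0.70. With own-design scaling the day 7 median was -0.04, with 5 genes higher, so the list's median is then not above uninjured. The median of all genes was -1.24 under that scaling, which shifts every gene alike, so the list's distance from all genes is unchanged. Over the other scalings tried the list's median ran from 1.12 to 1.34. After normexp it was 0.53, with 7 genes higher at day 7 and 7 lower at day 21. The summed scaled signal of the 15 genes was 11.3, 27.5 and 9.08 times the scaling percentile on the uninjured, day 7 and day 21 arrays. Ngfr (the low-affinity nerve growth factor receptor) was just outside the rule at day 21, with ratios of 4.87 ± 0.39 and -1.03 ± 0.54. Sox10, the transcription factor that defines the lineage, was left out by name at 4.22 ± 0.17 and -0.84 ± 0.18. Not every marker moved with them: Pmp22 (a myelin protein) was at 0.15 ± 0.13 and Cadm4 at -0.93 ± 0.56 at day 7. S100b and Olig1 were not well above background on any array, and Fa2h, Fabp7 and Prx were so at day 7 only. Of the neuron and axon list, 3 genes were measured (Npy, Gal and Sncg); all 3 were higher at day 7 (median 1.65) and lower at day 21 (median -1.46), but with own-design scaling the day 7 median was 0.31 and 0 were higher. The part of nerve tissue in these results was not tested.

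The cell division members numbered 8, with a median of 2.18 at day 7 and 0.40 at day 21. Tuba1c (an alpha-tubulin) was bright, with signals of 873, 5928 and 3840 units, levels of 1.57, 3.59 and 2.19 and ratios of 2.02 ± 0.14 and 0.62 ± 0.14. Its day 7 ratio is the lowest of all members, and since alpha-tubulin genes are nearly identical, the probe may read several of them. Racgap1 (a subunit of the complex that guides cytokinesis) stood at -2.96, -0.42 and -2.06, with ratios of 2.54 ± 0.18 and 0.90 ± 0.20, so that its day 21 level was still above uninjured. Dlgap5 (a spindle protein) stood at -2.40, -0.30 and -2.15, with ratios of 2.10 ± 0.16 and 0.25 ± 0.19. Fam83d (which brings a kinase to the spindle) had ratios of 2.64 ± 0.27 and 0.74 ± 0.29.

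Aurkb (the kinase of the chromosomal passenger complex), Cdca2 (which targets a phosphatase to chromosomes), Tpx2 (which activates Aurora A) and Bard1 (the partner of BRCA1 in DNA repair) had day 7 ratios of 2.17, 2.19, 2.06 and 2.45, with spot SDs from 0.27 to 0.37. Their uninjured signals were 14.5, 12.3, 12.3 and 10.8 units. At day 21 Aurkb, Cdca2 and Tpx2 were within their spot SD of uninjured (-0.30, -0.05 and -0.21), and Bard1 was at 0.54 ± 0.38.

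Of the mitosis list, 20 genes were measured, 18 higher and 0 lower at day 7, with a median of 2.18; at day 21 the counts were 8 and 0 and the median 0.65. The day 7 median was 0.84 with own-design scaling and 0.84 after normexp background correction, with 9 and 8 genes higher, and the day 21 median after normexp was -0.19. Of its 13 genes with a day 7 ratio of 2 or more, 6 were members, and the other 7 were also higher at day 21. Of the DNA replication and repair list, 14 of 23 were higher at day 7 (median 1.26, but -0.08 with own-design scaling); 4 had a ratio of 2 or more, all 4 were also higher at day 21, and none was a member.

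**Figure D2:**
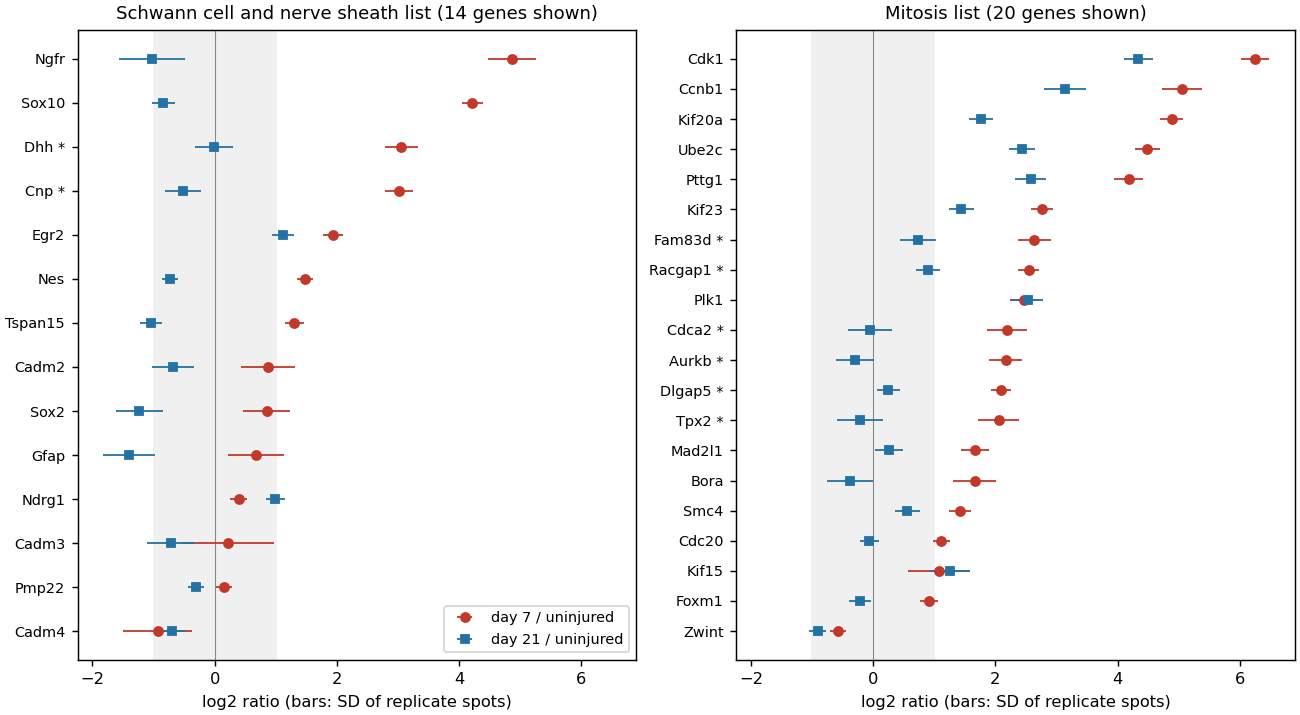
Log2 ratio to the uninjured array for the genes of the Schwann cell list (left, 14 of the 15 measured) and the mitosis list (right, 20 genes), at day 7 (red circles) and day 21 (blue squares); bars are the SD of replicate spots, the grey band is a ratio from -1 to 1 and * marks members. Schwann cell genes that were high at day 7 are mostly below 0 at day 21, whereas the mitosis genes with the highest day 7 ratios are also above 1 at day 21.

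Of these division genes, 4 had a promoter in the RefSeq table. The 250 bases before each start are printed because the genes share a role and a pattern; capitals mark CCAAT (the CCAAT box) and TTTGAA (the core of the cell cycle homology region) or their reverse complements, ATTGG and TTCAAA.
Dlgap5, chr15:23144177-23144426, minus strand: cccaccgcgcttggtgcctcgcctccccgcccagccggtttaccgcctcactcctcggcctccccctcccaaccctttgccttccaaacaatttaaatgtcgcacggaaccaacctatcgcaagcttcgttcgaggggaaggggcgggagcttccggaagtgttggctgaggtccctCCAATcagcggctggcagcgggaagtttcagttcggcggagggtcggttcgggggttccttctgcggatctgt
Fam83d, chr3:167841542-167841791, plus strand: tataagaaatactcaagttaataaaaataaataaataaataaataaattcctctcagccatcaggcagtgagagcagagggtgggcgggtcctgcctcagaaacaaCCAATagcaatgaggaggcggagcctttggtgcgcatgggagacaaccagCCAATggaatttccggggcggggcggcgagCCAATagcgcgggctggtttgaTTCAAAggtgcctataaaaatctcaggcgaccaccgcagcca
Tuba1c, chr7:132070734-132070983, plus strand: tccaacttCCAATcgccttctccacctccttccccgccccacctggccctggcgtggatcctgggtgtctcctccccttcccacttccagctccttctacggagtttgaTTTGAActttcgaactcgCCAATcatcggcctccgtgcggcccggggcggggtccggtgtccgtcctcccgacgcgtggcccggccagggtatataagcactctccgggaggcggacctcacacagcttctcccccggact
Bard1, chr9:80143756-80144005, minus strand: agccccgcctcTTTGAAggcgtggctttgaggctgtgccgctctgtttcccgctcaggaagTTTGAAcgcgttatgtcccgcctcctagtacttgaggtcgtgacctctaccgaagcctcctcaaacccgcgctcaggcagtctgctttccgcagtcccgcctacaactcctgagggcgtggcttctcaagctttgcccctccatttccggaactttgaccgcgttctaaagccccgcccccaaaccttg

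CCAAT was present in 3 of these 4 promoters (Dlgap5, Fam83d, Tuba1c) and TTTGAA in 3 (Bard1, Fam83d, Tuba1c). Over the 48 matched members, CCAAT was present in 33.3%, against 35.6% of measured genes and 34.3% of all promoters. TTTGAA was present in 12.5%, against 9.89% and 16.0%. As a whole the members' promoters therefore held both motifs at about the share of other genes. Of the other motifs searched on both strands, TGAGTCA (AP-1) was in 4 of 48 (8.33%, against 3.14% of measured genes and 3.98% of all promoters) and AACAAT (SOX) in 5 (10.4%, against 5.29% and 10.3%). GGGCGG (GC box) was in 22 (45.8%), below the 56.6% of measured genes and above the 32.4% of all promoters. TTTCCCGC, TTTGGCGC (E2F), TGACGTCA (CRE) and CCGGAAGT (ETS) were each in at most 3. Such matches are counts of letters in a fixed window.

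Among the receptors and signalling members, Entpd2 (an enzyme of the cell surface that cleaves nucleotides) had levels of 0.19, 2.63 and 0.64 and ratios of 2.44 ± 0.14 and 0.45 ± 0.15. It is in the fibroblast list, of which 3 of 12 genes were higher and 1 lower at day 7 (median 0.72, but -0.62 with own-design scaling). Tspan6 (a tetraspanin) had ratios of 2.17 ± 0.15 and 0.38 ± 0.16 from signals of 149, 1120 and 557 units. Lpar1 (a receptor for lysophosphatidic acid) stood at -2.90, -0.56 and -2.37, with ratios of 2.34 ± 0.17 and 0.53 ± 0.20. Rgs5 (a brake on G protein signalling, common in pericytes) was at 2.05 ± 0.18 and 0.83 ± 0.20. In the contractile smooth muscle list Rgs5 was the 1 gene of 12 that was higher at day 7 (0 with own-design scaling and 2 after cyclic loess), 8 were lower and the median was -1.98. Or51v8, annotated as an olfactory receptor, had ratios of 2.79 ± 0.21 and -0.89 ± 0.28. Plekhg2, Tspan5, Ric8a, Itm2a and Tmem100 completed the group, with day 7 ratios from 2.11 to 2.57.

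The cytoskeleton and adhesion members included the second largest ratio of the set. Shroom2 (an actin-binding protein) stood at -4.11, 0.17 and -3.19, 19.4-fold above uninjured at day 7 (4.28 ± 0.24) and 0.92 ± 0.26 above it at day 21. Its other shared probe was not well above background on any array and gave 0.63. Epb41l3 (a membrane skeleton protein) had ratios of 2.87 ± 0.20 and -0.86 ± 0.25. Actn3 (the alpha-actinin of fast skeletal muscle) had 2.61 ± 0.20 and -0.86 ± 0.25. In the striated muscle list 2 of 8 genes were higher, Actn3 among them, with a median of 0.11 (-0.07 when scaled on the median and -1.23 with own-design scaling). Parvb and Nav2, at 2.02 ± 0.38 and 2.15 ± 0.43, were near the limit and dim in the uninjured artery by the probes the rule reads. Further Nav2 probes found on the older design only stood at -1.20 and -4.80 there, with day 21 ratios of -1.26 and -0.49. The brighter of these probes was thus outside the limits of the rule.

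The immune and blood cell members were of several lineages. Fcnb (ficolin B, a lectin of neutrophils and monocytes) stood at -4.87, -1.31 and -4.12, with ratios of 3.56 ± 0.38 and 0.76 ± 0.40. Gp9 (a subunit of the platelet receptor for von Willebrand factor) had ratios of 2.63 ± 0.19 and -0.44 ± 0.24. In the erythroid and platelet list 5 of 7 genes were higher at day 7 (median 1.52, and 0.18 with own-design scaling). At day 21, 1 was higher and 1 lower (median -0.41). The summed scaled signal of the list was 8.25, 23.6 and 14.7, but most of each sum was Pf4 (a platelet chemokine), which stood at 2.94, 4.46 and 3.82. The part of blood cells in the result was not tested. Gbp2 (a GTPase induced by interferon) was bright, at 338, 2325 and 1165 units, with ratios of 2.04 ± 0.14 and 0.27 ± 0.15. The interferon list as a whole had a median of -0.04, with 2 of 11 higher and 4 lower at day 7. Itgb7 (an integrin of lymphocytes), Ly49i7 (of a family of natural killer cell receptors with near-identical copies), Ly6g6c and Ly6g6f had day 7 ratios from 2.18 to 2.56. Ly6g6c and Ly6g6f are neighbours on chromosome 20, with 2 protein-coding genes between them in the RefSeq table, the closest pair among the members.

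No gene of the macrophage list was a member, although 17 of its 19 measured genes were higher at day 7 (median 2.88, and 1.54 with 13 higher under own-design scaling). All 13 with a day 7 ratio of 2 or more were also higher at day 21. The endothelial list likewise held no member, with 14 of 16 higher at day 7 (median 1.68, but 0.34 with 4 higher under own-design scaling and 1.14 with 9 higher after normexp), and its 6 genes with a day 7 ratio of 2 or more were also higher at day 21. The 4 measured genes of the neutrophil list were all higher at day 7 (3 with own-design scaling). Lcn2, with the largest day 7 ratio of these (3.22 ± 0.23), was the 1 also higher at day 21 (3.46 ± 0.24), and 0 were lower. S100a8 and S100a9, which neutrophils make in quantity, met both limits and were left out by name, at 2.52 ± 0.24 and 2.47 ± 0.18 at day 7.

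Members of mitochondria, metabolism and transport were the largest role group, with 12 genes and a median of 2.24 at day 7 and 0.25 at day 21. Ppif (cyclophilin D, which regulates the mitochondrial permeability pore) stood at -0.52, 1.85 and 0.24, with ratios of 2.37 ± 0.15 and 0.76 ± 0.15. Hk1 (hexokinase, the first enzyme of glycolysis) stood at -0.10, 2.10 and -0.45, with ratios of 2.20 ± 0.15 and -0.36 ± 0.15. Both were bright on all arrays, but by these probes Hk1 ended below and Ppif above the uninjured level. A second probe of Hk1 on the older design, dimmer but well above background, had a day 21 ratio of 0.44 ± 0.26. The sign of Hk1 at day 21 therefore depends on the probe. Ucp2 (an uncoupling protein of the inner membrane) had 2.58 ± 0.18 and 0.78 ± 0.20. Qprt (of NAD synthesis), Slc44a1 (a choline transporter), Slc25a10 (a mitochondrial dicarboxylate carrier), Slc6a13 (a GABA transporter), Hsd11b2 and Srd5a1 (steroid enzymes), Acyp1, Cyb561d2 and Ciao2a had day 7 ratios from 2.04 to 2.68. A second probe of Slc44a1 on the older design had a day 21 ratio of 2.01, outside the limits of the rule. Of the 27 measured genes of oxidative phosphorylation 0 were higher at day 7 and 18 lower.

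By the probes the rule reads, the 8 members of protein handling and vesicle traffic were all below the scaling percentile on every array. Ap2b1 (a subunit of the AP-2 clathrin adaptor) stood at -5.11, -1.76 and -4.72, with ratios of 3.34 ± 0.43 and 0.38 ± 0.48. Its uninjured signal, 8.56 units, was 1.03 times the lowest signal well above background. Further Ap2b1 probes on the older design were brighter, at -0.01, -1.39 and -3.98 in the uninjured artery, with day 21 ratios of -0.30, 0.43 and -0.80. A further probe on the day 7 design stood at 1.80. The day 7 ratio of Ap2b1 therefore rests on a probe near background in the uninjured artery, and the brighter probes have no day 7 ratio. Rpap3 (a partner of the HSP90 chaperone) had 2.71 ± 0.25 and -0.40 ± 0.32, and Resp18 (a protein of endocrine secretory granules) 2.49 ± 0.19 and -0.58 ± 0.24. Adrm1 (a ubiquitin receptor of the proteasome), Klhdc10, Cct6b, Rbsn and Tvp23b ran from 2.06 to 2.30 at day 7. The remaining members, C18h18orf21 and Ccdc77, were at 2.07 ± 0.24 and 2.06 ± 0.37.

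**Figure D3:**
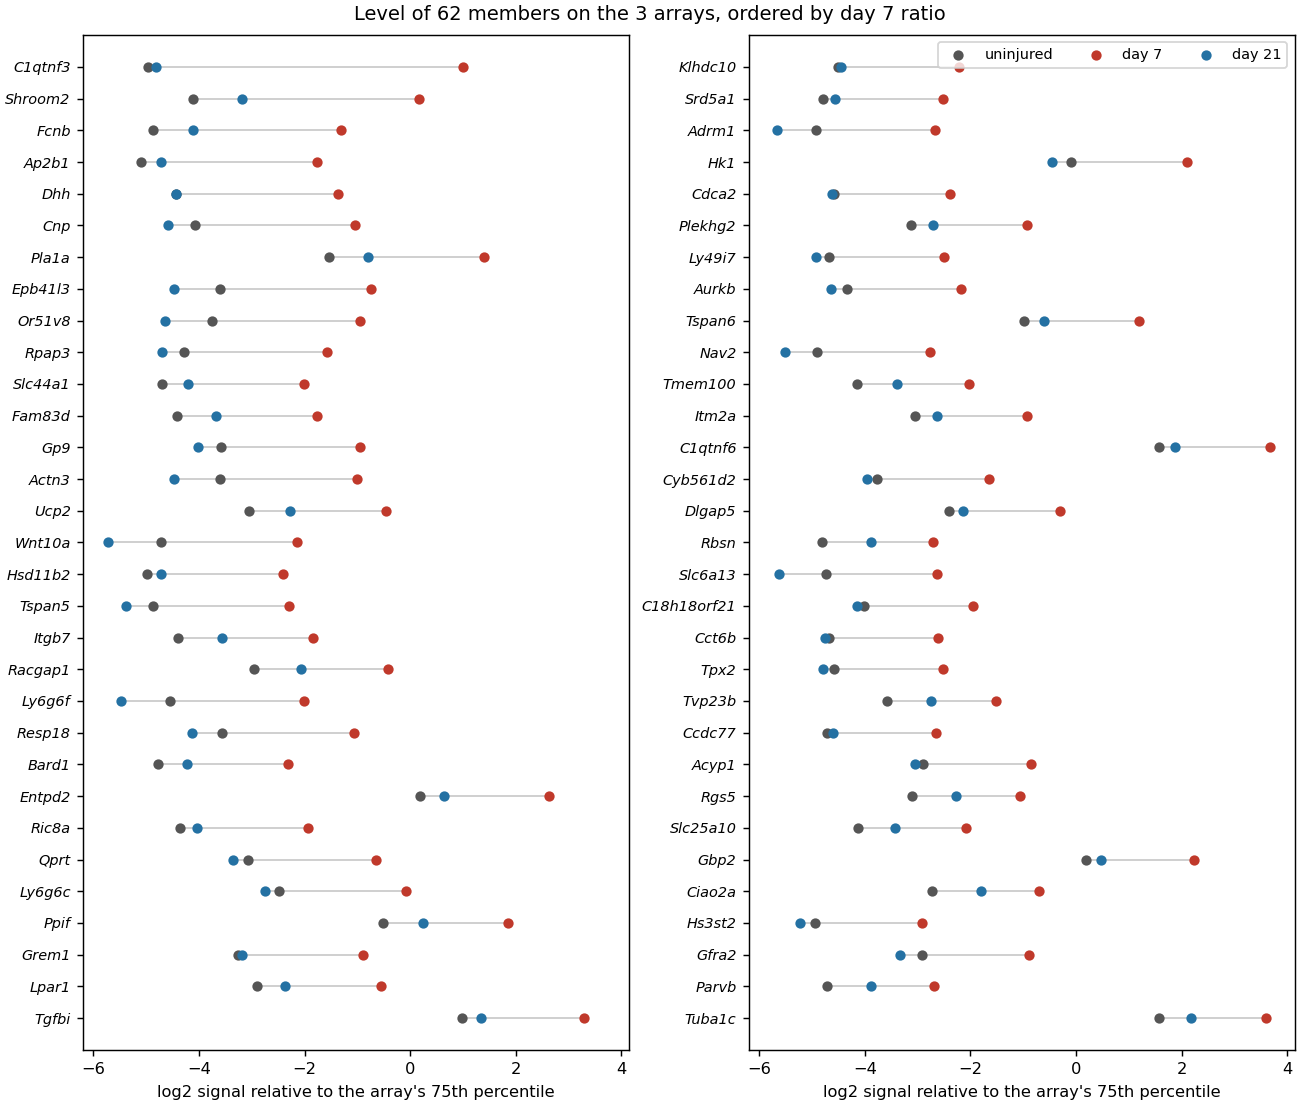
Level of 62 of the 63 members (log2 signal relative to the array's 75th percentile, horizontal axis) on the uninjured (grey), day 7 (red) and day 21 (blue) arrays, 1 array each, ordered by day 7 ratio. The day 7 point lies to the right of both others for every gene shown, and most are below 0 on all 3 arrays.

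Many members had a low signal in the uninjured artery, the denominator of the ratio that the rule used, so that the rule itself favours such genes. The median signal was 17.6 units there, 199 at day 7 and 54.0 at day 21. In 29 members (46.0%) the uninjured signal was under 2 times the lowest signal well above background, against 589 (11.4%) of all measured genes. In 41 it was under 4 times that signal, and in 24 the day 21 signal was. No member was so dim at day 7. Both the uninjured and day 21 signals were at least 4 times that limit for 22 members. On all 3 arrays 51 members lay below the scaling percentile. After normexp background correction of the median signals, which also adds an offset of 50 units, the members' median day 7 ratio was 1.08 and 9 of the 63 still met the rule. The share of all genes 4-fold or more above uninjured at day 7 was then 1.72%, against 4.83%.

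**Figure D4:**
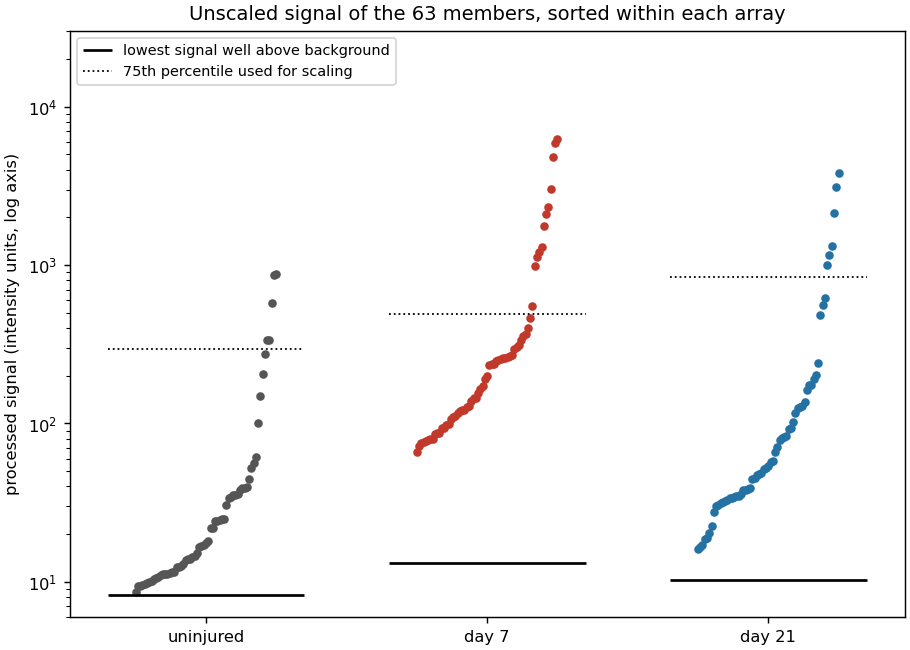
Unscaled processed signal (intensity units, log axis) of the 63 members on each array, sorted within the array; solid lines are the lowest signal well above background (8.31, 13.1 and 10.3 units) and dotted lines the 75th percentile used for scaling. Many uninjured points sit just above the solid line, whereas every day 7 point is at least 5.01 times above it.

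The members were set beside the other genes with a day 7 ratio of 2 or more, with the same names left out: 164 that were also higher at day 21 and 14 that were lower at day 21. The median day 7 ratio was 2.31 for members, 2.79 for genes higher on both days and 2.43 for those lower at day 21. A ratio of at least 3 at day 7 was found for 11.1% of members, 40.2% of genes higher on both days and 21.4% of those lower at day 21. The uninjured signal was under 2 times the lowest signal well above background in 46.0%, 23.8% and 35.7%. Of the 3 classes the members had the lowest ratios at day 7 and most often an uninjured signal near background. These comparisons rest on the same arrays that chose the classes and were not tested.

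The limits of the rule fall within a continuous spread of ratios. Just inside the day 7 limit were Tuba1c (2.02), Parvb (2.02), Gfra2 (2.03), Hs3st2 (2.04) and Ciao2a (2.04), and just outside were Psrc1 (1.99), Pspn (1.99), Aldh1l2 (1.98), Rhd (1.97) and Il1r2 (1.97). Near the upper day 21 limit, Ciao2a (0.93), Rbsn (0.93) and Shroom2 (0.92) were inside, and Or1f26 (1.005), Ass1 (1.05) and Itpr3 (1.07) outside. Near the lower one, Wnt10a (-0.999), Ly6g6f (-0.93) and Slc6a13 (-0.89) were inside, and Csap1 (-1.02), Ngfr (-1.03) and Mrpl21 (-1.08) outside. Each of these distances to a limit is smaller than the spot SD of the gene's ratio.

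Further probes gave a check on values the rule did not read, though on the same arrays. On the older design, 21 further probes of 15 members were well above background on both the uninjured and day 21 arrays. Of these, 16 were within 2-fold of uninjured at day 21, 2 were higher (Slc44a1 at 2.01 and Tuba1c at 1.06) and 3 lower (among them Nav2 at -1.26 and C1qtnf3 at -1.16); over all genes 76.3% were within 2-fold. The day 7 design held 20 further probes of 17 members, 16 of them well above background. Of these 16, 6 stood at least 1 log2 unit above the uninjured level of the probe the rule reads. Probes differ in brightness, so such levels give no day 7 ratio. For day 7 only 4 members had a further probe on both designs, and Grem1 alone had one well above background on all 3 arrays. The second probe of Srd5a1 gave 2.37 and that of Nav2 1.71 at day 7, both from uninjured and day 21 signals not well above background.

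The authors' deposited table, which holds log2 values of their own normalization, has a row named for the rule's probe for 48 members. In it 47 of the 48 were higher at day 7, and Gfra2 was the exception. Over all 4108 measured genes with a row there, 417 were higher and 1662 lower at day 7. The values come from the arrays by which the members were chosen, so the count is a description and not an independent check. Some rows did not follow the signal of the probe they are named for. In the uninjured artery Ap2b1 (8.56 units) read 7.62 there, above Ly6g6c (52.4 units) at 7.25. Differences from the ratios given above may therefore reflect more than normalization, which was not tested. The median day 7 ratio of these members in the authors' deposited table was 1.84, and 13 of the 48 met both limits. C1qtnf3 was 5.72 higher and Racgap1 3.54 higher at day 7 in the authors' deposited table. The uninjured value of Racgap1 there was 4.93 for 37.9 units, while Acyp1 read 6.74 for 39.3 units.

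Membership depended strongly on the scaling and background settings. Over 10 alternatives that kept the limits of the rule, a member met it in a median of 6, with a range from 3 to 9. C1qtnf3 met it in all 9 alternatives that measured it, and Pla1a and Tgfbi in 9 of 10. The day 7 ratio stayed above 0 for all 63 members in each alternative that measured them, except for Gfra2 in the authors' deposited table. All alternatives use the arrays that chose the members. Own-design scaling shifts every day 7 ratio by -1.34, so it could not take a member below 0.

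**Figure D5:**
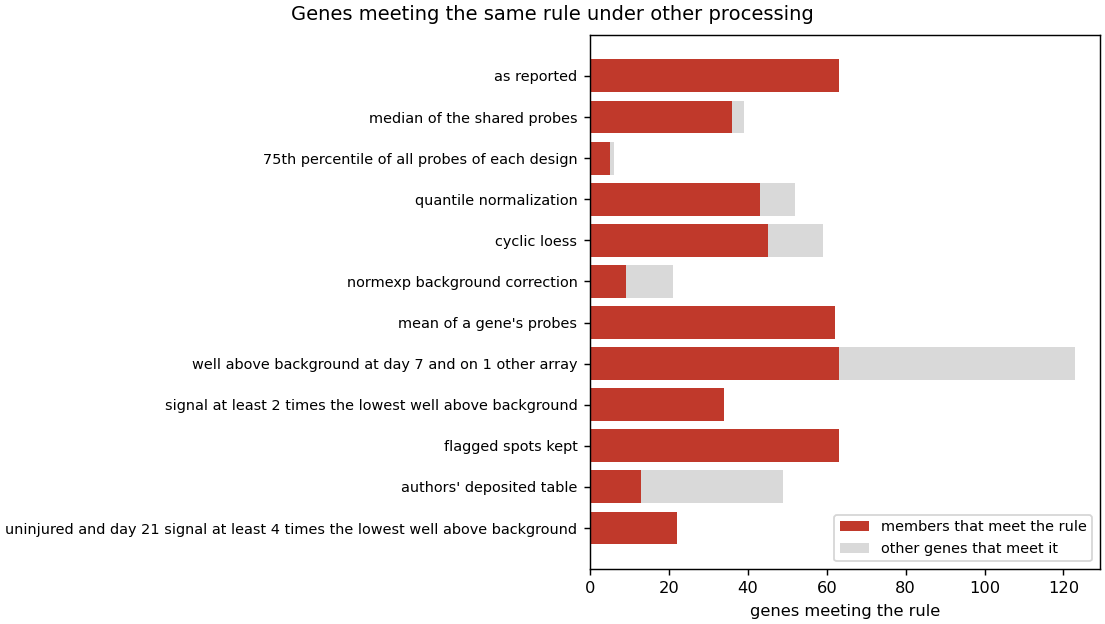
Number of genes that meet the rule as reported and under 11 other settings (horizontal bars from 0), with the 63 members in red and other genes in grey. The count falls to 6 with own-design scaling and rises to 123 when a gene needs to be well above background at day 7 and on 1 other array.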

How the data were processed

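Agilent one-colour arrays of 1 uninjured, 1 day 7 and 1 day 21 artery were used; groups came from the sample titles. Per the file headers, the intensity of each spot comes from Agilent Feature Extraction (release 11.0.1.1 for day 7, release 10.7.3.1 otherwise); the processed signal is background-subtracted within an array. The authors' deposited table holds log2 values, and the sources used here do not name their normalization.

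Of 10602 probes on both designs, 10583 carried no outlier flag and 6698 were well above background on all arrays; 5275 had a RefSeq symbol (matched by accession to the GRCr8 table, used for names and promoters), giving 5172 genes, each read by its brightest probe. Arrays were scaled on the 75th percentile of the shared probes. Higher and lower mean 2-fold. No model could be fitted to single arrays, and their number limits the precision. Spot SDs came from probes with at least 3 spots. The rule was tested on simulated data. Python 3.11.15, R 4.3.3 and limma 3.58.1 were used.

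The members and the 28 gene lists, 14 of them cell type markers, were chosen with earlier results of these data known; the 9 role groups were assigned after values were seen. The rule for named genes took the 15 highest members, list members, genes nearest to the limits and markers; other members are named by role. Alternatives were the median, own-design scaling, quantile normalization, cyclic loess, normexp (offset 50, from median signals because the files hold no mean signal), mean of probes, filters on signal and flags, the authors' table and other limits. The filter at 4 times the lowest signal was chosen after seeing the data. Per the design text there was a further experiment at each time, not analysed here. The values of 1 member are not reported here; counts and medians include it.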

Additional observations from a re-analysis of the deposited data

Results flagged for a closer look

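For 7 named members the day 7 and day 21 ratios to uninjured had opposite signs, with the day 21 ratio below 0 by more than 2 spot SDs. The day 21 log2 ratios were -0.93 for Ly6g6f, -0.89 for Or51v8, -0.86 for Actn3, -0.86 for Epb41l3, -0.58 for Resp18, -0.42 for Gfra2 and -0.36 for Hk1. The difference between the days was not tested, since each day has 1 array, and both ratios share the uninjured array, so an error in its value moves both. All of these except Hk1 had a day 21 signal no more than 8.09 times the lowest signal well above background. In the authors' deposited table Gfra2 was below uninjured on both days. A second probe of Hk1 on the older design had the other sign at day 21, 0.44 ± 0.26.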

How the results depend on the processing

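No paired analysis was possible because each group has 1 array and no test was made; for the same reason no replicate could be left out. The rule gave 63 genes as reported, 39 with scaling on the median, 6 with scaling on all probes of each design, 21 after normexp, 123 when a gene needed to be well above background at day 7 and on 1 other array, and 34 with a signal of at least 2 times the lowest well above background. A filter at 4 times that signal in the uninjured and day 21 arteries, chosen after seeing the data, gave 22. Limits of 1.5 or 2.5 at day 7 gave 192 or 22, and a day 21 limit of 0.5 gave 33. The counts after quantile normalization (52), cyclic loess (59), the mean of probes (62), with spots carrying an outlier flag kept (63) and in the authors' deposited table (49) were within 1.5 times, but only 43, 45, 62, 63 and 13 of these genes were members. The median day 7 ratio of 2.31 became 0.98 with own-design scaling, 1.08 after normexp and 1.84 in the authors' deposited table. The median day 21 ratio of 0.15 became 0.46 after quantile normalization, 0.48 after cyclic loess and -0.70 after normexp. The day 7 ratio of Gfra2 reversed, to -1.82, in the authors' deposited table. The median of all genes at day 7 shifted by -1.34 with own-design scaling, -0.18 on the median, -0.14 after quantile normalization, -0.21 after normexp and -0.82 in the authors' deposited table; at day 21 it shifted by 0.17 after cyclic loess, -0.28 after normexp and 0.12 in the authors' deposited table. The cause was not tested, except that the signal filters measure fewer genes by construction. Low signal in the uninjured artery limits the precision of most ratios.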

Other observations

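The rule needs a gene to be well above background on all 3 arrays. Of 7797 genes with an unflagged shared probe, 605 were well above background at day 7 only, 234 at day 21 only and 75 in the uninjured artery only, so the genes detected at day 7 alone outnumber the members and have no ratio here. Among cell type markers, Nefm and Stmn2 (neuron), Elane, Mmp8 and Padi4 (neutrophil), Cd22 and Bank1 (B cell) were of this kind. So were Gzma and Klrb1a (T and NK cell), Hpgds (mast cell), Cdh1 (epithelium) and Thy1, which is in both the T and NK cell list and the fibroblast list. On the uninjured, day 7 and day 21 arrays, 4, 6 and 6 of 10 neuron markers were well above background. The counts were 5, 10 and 7 of 12 for neutrophils and 6, 9 and 10 of 12 for B cells. Of the 4 B cell genes with ratios, 2 were higher at day 7 (median 0.38) and 3 at day 21 (median 2.05). The gene with the largest day 7 ratio that met both limits was Apod (apolipoprotein D), left out by name, at 9.41 ± 0.23 at day 7 and -0.87 ± 0.31 at day 21.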
